A study of Mus musculus with 2 samples.

Results

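The genes described here are 10 cyclins and cyclin-dependent kinases (CDKs), namely Ccna2, Ccnb1, Ccnb2, Ccnd1, Ccnd2, Ccnd3, Ccne1, Ccne2, Cdk1 and Cdk6, out of 32285 genes in the count table. They were chosen by name, and all 10 were in the table. They were read in single-cell RNA-seq of Lin-CD45- cells from the femurs and tibiae of 3 male INK-ATTAC mice, 24 months old and untreated. INK-ATTAC mice carry an inducible caspase 8 transgene driven by a fragment of the p16Ink4a promoter, so all cells here share that transgene. Red cells were lysed, cells with lineage markers (CD5, B220, CD11b, Gr-1, 7-4 and Ter-119, the last a marker of maturing red cells) were depleted and CD45- cells were sorted, so the classes below are those that this gate let through. The mice were pooled, and 2 libraries, labelled replicates 1 and 2, were made with a kit that captures transcript 3′ ends and counts each captured transcript as 1 unique molecular identifier (UMI), whatever its length.

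Of 11056 barcodes 10928 were in both libraries, with closely matched depth per barcode (Pearson r of log10 UMIs 0.9999), so the libraries were read as the same cells and summed per barcode as 1 biological sample, not used as replicates. There was no replicate animal and no test between groups, the mouse that a cell came from cannot be told apart, and each interval below (95%, exact) covers counting error only. The libraries held 116827845 and 120556381 UMIs. Over shared barcodes the squared differences between their counts summed to 0.559 of all UMIs, less than counts of separate molecules would give. A transcript may so be counted in both libraries. UMI numbers below are therefore not numbers of transcripts, and likeness of the libraries is not independent support. Barcodes with at least 200 genes and at most 20% mitochondrial UMIs numbered 9573, and 9 cell classes were made from them. Erythroid-like cells (6421) were divided by the share of their UMIs from globin genes, which goes up as red cells mature, into 1916 cells under 0.5%, 791 cells from 0.5 to 1%, 1631 cells from 1 to 2.5%, 1506 cells from 2.5 to 6% and 577 cells at 6% or more. The other classes were megakaryocyte-like (130 cells), endothelial-like (50), Sca-1/PDGFRa+ fibroblast-like (137) and LEPR+ stromal-like cells (1881). In each class no marker of the list that named it was at 0. Of the erythroid-like cells, 2439 lay in 3 clusters of low depth (1, 4 and 8, median 5111, 9445 and 7021 UMIs), with 7, 10 and 7 of 14 erythroid markers found but led by genes that mark no cell type here, namely Gm26917 and Lars2 in the first, Lars2 and mt-Nd4l in the next, and histone and heat shock genes in the last. The classes were not free of other markers: the 12 LEPR+ stromal markers summed to 6898 CPM in endothelial-like cells, beside 8597 CPM of the 12 endothelial markers, and 8 osteoblast markers to 7931 CPM in fibroblast-like cells, beside 32912 CPM of the 13 fibroblast markers. Their part in the levels below was not tested. Median UMIs per cell ran from 3794.5 in endothelial-like cells to 42105.5 in erythroid-like cells with 2.5 to 6% globin. Levels are CPM (UMIs of a gene per 1000000 UMIs, both summed over a class).

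Cyclins are the regulatory subunits that switch CDKs on, each at its own stage of the cell cycle. D cyclins bind Cdk4 and Cdk6 in G1 and carry growth factor signals to the RB protein, whose phosphorylation frees the E2F transcription factors. E cyclins bind Cdk2 at entry into S phase, Ccna2 acts in S phase and G2, and the B cyclins drive mitosis with Cdk1. Red cell progenitors divide several times while they fill with hemoglobin and then leave the cycle, and Ccnd3 is known to bear on the number of these divisions.

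Promoters of 3 mitotic genes are shown because these genes were higher side by side in globin-rich cells, and that of Ccnd3 because it was the leading D cyclin there. The sequences are from RefSeq (GRCm38.p6), 5′ to 3′ on the strand of the gene, without bases that lie inside the GENCODE gene. The promoter table matched 6 of the 10 genes (Ccnb1, Ccnb2, Ccnd3, Ccne1, Cdk1 and Cdk6). Capitals mark CCAAT (the box bound by NF-Y) and TTTGAA (the cell cycle genes homology region, CHR), each on either strand.
Ccnb1, minus strand, chr13:100786571-100786736: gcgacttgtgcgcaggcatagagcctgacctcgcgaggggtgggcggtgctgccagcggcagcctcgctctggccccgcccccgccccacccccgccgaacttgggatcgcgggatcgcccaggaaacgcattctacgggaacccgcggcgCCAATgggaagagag
Ccnb2, minus strand, chr9:70421555-70421804: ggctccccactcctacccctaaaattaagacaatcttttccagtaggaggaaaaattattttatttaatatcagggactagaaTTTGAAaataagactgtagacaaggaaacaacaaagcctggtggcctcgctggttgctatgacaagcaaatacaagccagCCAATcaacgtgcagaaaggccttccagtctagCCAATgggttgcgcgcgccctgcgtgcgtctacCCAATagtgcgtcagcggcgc
Cdk1, minus strand, chr10:69352939-69353162: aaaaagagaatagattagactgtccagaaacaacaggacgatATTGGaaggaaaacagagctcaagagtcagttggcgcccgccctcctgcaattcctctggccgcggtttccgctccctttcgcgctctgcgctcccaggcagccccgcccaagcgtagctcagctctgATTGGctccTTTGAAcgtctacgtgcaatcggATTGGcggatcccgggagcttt
Ccnd3, plus strand, chr17:47504801-47505050: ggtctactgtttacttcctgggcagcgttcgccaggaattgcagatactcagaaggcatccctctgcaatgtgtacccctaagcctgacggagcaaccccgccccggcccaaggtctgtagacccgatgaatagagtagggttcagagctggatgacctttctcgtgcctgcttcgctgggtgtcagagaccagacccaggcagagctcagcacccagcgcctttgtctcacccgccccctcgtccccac
In the full 250 bases before the RefSeq start, on both strands, CCAAT was found 2 times for Ccnb1, 3 times for Ccnb2 and 3 times for Cdk1, and it was in 33.8% of all 32851 promoters. TTTGAA was found 1 time for Ccnb2 and 2 times for Cdk1, and it was in 16.0% of all promoters. Neither was in the window shown for Ccnd3 or in those of Ccne1 and Cdk6, while a second Ccnd3 start, inside the gene, had 1 CCAAT. The letters GCGGGAA, 1 form of the motif of E2F factors, were in none of these windows and in 3.82% of all promoters. Other forms of that motif were not searched, so the windows cannot be said to lack it. A motif of erythroid transcription factors, with the letters AGATAA, was likewise found in none of them, and in 9.99% of all promoters. A match describes the letters of a window and not binding.

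The share of Ccnd3 among the D cyclins differed between lineages. In erythroid-like cells nearly all D-cyclin UMIs were Ccnd3, with 93.9% (93.7 to 94.1) of 87197, while Ccnd2 had 5.57% (5.36 to 5.79) and Ccnd1 0.507% (0.442 to 0.578). In megakaryocyte-like cells Ccnd3, with 49.6% (45.6 to 53.5) of 1255 UMIs, and Ccnd2, with 45.6% (41.6 to 49.6), had overlapping intervals, and Ccnd1 had 4.86% (3.31 to 6.85). In fibroblast-like cells Ccnd2 had 44.9% (36.3 to 53.8) of 265 UMIs, Ccnd3 33.6% (25.6 to 42.3) and Ccnd1 21.5% (14.8 to 29.5), and the intervals of Ccnd2 and Ccnd3 overlapped. In LEPR+ stromal-like cells Ccnd3 led with 61.3% (58.0 to 64.5) of 1813 UMIs, before Ccnd2 with 36.6% (33.4 to 39.8) and Ccnd1 with 2.15% (1.31 to 3.32). Ccnd3 was above Ccnd2 in the sub-clusters of 705, 600 and 45 of these cells. In those of 355 and 176 cells the intervals overlapped. With 355 cells Ccnd2 was at 93.7 CPM (74.9 to 116) and Ccnd3 at 97.0 CPM (77.8 to 120). In endothelial-like cells the shares were 39.3% (21.5 to 59.4) for Ccnd3, 32.1% (15.9 to 52.4) for Ccnd1 and 28.6% (13.2 to 48.7) for Ccnd2 from 56 UMIs, so no order can be read at this depth.

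**Figure D1:**
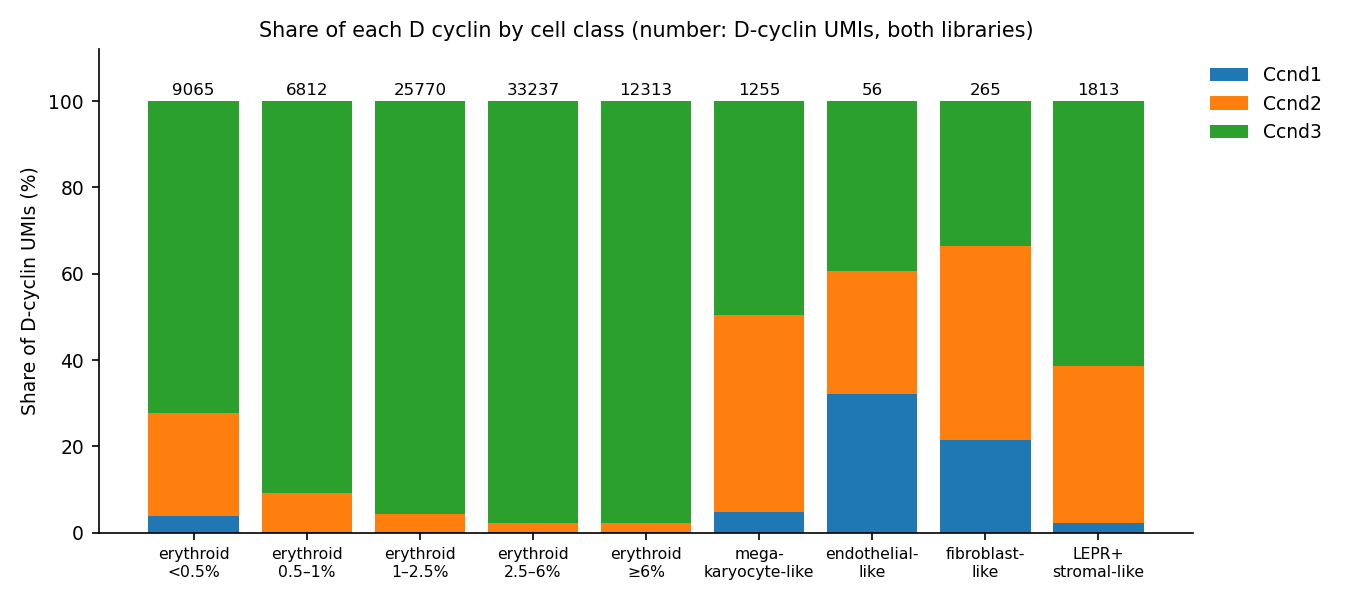
Share of Ccnd1, Ccnd2 and Ccnd3 among D-cyclin UMIs (percent, y axis) in 5 globin classes of erythroid-like cells and in 4 other classes (x axis). Ccnd3 goes from 72.3% to 97.7% along the erythroid classes, and Ccnd1 has its highest shares in endothelial-like (32.1%) and fibroblast-like (21.5%) cells.

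The libraries gave Ccnd3 shares of 48.2% and 50.9% in megakaryocyte-like cells and Ccnd2 shares of 47.4% and 42.4% in fibroblast-like cells. The megakaryocyte-like cells were uneven in depth, with 39.4% of the UMIs in the 5 deepest cells. When each cell had the same weight, Ccnd3 had 62.6% there and Ccnd2 32.8%. Of 113 megakaryocyte-like cells thinned to 2000 UMIs each, 25.7% had Ccnd3 alone, 15.0% Ccnd2 alone and 6.19% both. Of 1739 LEPR+ stromal-like cells thinned alike, 15.6% had Ccnd3 alone, 7.76% Ccnd2 alone, 1.90% both and 74.1% none. Pairs are few at this depth whatever the cells hold, so nothing is read from their number.

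Ccnd3 (ENSMUSG00000034165, chr17:47505051-47599691, mm10, plus strand) had a higher level in each erythroid class than in the one before. The levels were 136, 278, 412, 547 and 626 CPM from the lowest to the highest globin share, and no neighbouring intervals overlapped. Between 0.5 to 1% globin and 6% or more, the log2 ratio of CPM was 1.17 (1.11 to 1.24). Thinned to 2000 UMIs, 22.3% of cells in the first class and 68.2% in the last had a Ccnd3 UMI (unthinned 61.5% and 94.8%). Outside the erythroid-like cells Ccnd3 was at 217 CPM (194 to 243) in megakaryocyte-like, 106 CPM (97.0 to 115) in LEPR+ stromal-like, 102 CPM (50.7 to 182) in endothelial-like and 70.7 CPM (51.5 to 94.8) in fibroblast-like cells. The megakaryocyte-like cells were above the others, though without their 5 deepest cells, at 202 CPM (173 to 234), they overlapped with endothelial-like cells. Endothelial-like cells overlapped with both stromal classes. A pseudogene, Ccnd3-ps, matches 502 bases of Ccnd3 at 96.8% identity and was not counted, which leaves the Ccnd3 level uncertain.

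Ccnd2 (ENSMUSG00000000184, chr6:127125162-127152193, mm10, minus strand), a D cyclin known to respond to cytokines, had the opposite course, at 45.0, 27.4, 18.2, 12.1 and 14.1 CPM. Only the last pair of classes overlapped. The log2 ratio of the last to the second class was -0.96 (-1.26 to -0.66), short of 2-fold, and -1.14 without the 3 clusters of low depth. The first class was mixed: Ccnd2 was at 53.9 CPM in cluster 5 and 40.7 CPM in cluster 7, but 16.1 CPM in cluster 1 and 11.8 CPM in cluster 4. Cells of at least 5000 UMIs in that class had 46.2 CPM and shallower cells 7.98 CPM. The pooled level of a class so rests on which clusters fill it. Without clusters 1, 4 and 8 the levels were 50.4, 31.7, 19.3, 12.6 and 14.4 CPM. It was higher in megakaryocyte-like cells, at 199.7 CPM (177 to 224), and stood at 94.6 CPM (72.1 to 122) in fibroblast-like, 73.9 CPM (31.9 to 146) in endothelial-like and 63.0 CPM (56.4 to 70.2) in LEPR+ stromal-like cells. Megakaryocyte-like cells were above the other 4 lineages, though without their 5 deepest cells, at 165 CPM (139 to 195), they overlapped with endothelial-like cells. Fibroblast-like cells were above LEPR+ stromal-like cells, but 5 of 137 cells held 50.4% of their Ccnd2 UMIs, and without the 5 deepest cells, at 80.5 CPM (58.6 to 108), they overlapped with them. Endothelial-like cells could not be told apart from either.

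Ccnd1 (ENSMUSG00000070348, chr7:144929931-144939925, mm10, minus strand), the D cyclin of many adherent cells, was low in erythroid-like cells. It was at 7.12 CPM (6.10 to 8.27) in those under 0.5% globin and between 0.505 and 0.729 CPM in the other erythroid classes, which overlapped each other. It was at 83.1 CPM (38.0 to 158) in endothelial-like cells (18 UMIs in 9 of 50 cells), 45.3 CPM (30.2 to 65.2) in fibroblast-like cells (57 UMIs in 22 of 137 cells), 21.3 CPM (14.4 to 30.3) in megakaryocyte-like and 3.71 CPM (2.25 to 5.75) in LEPR+ stromal-like cells. Endothelial-like cells were above megakaryocyte-like cells, fibroblast-like cells overlapped with both, and LEPR+ stromal-like cells were below all 3. Ccna2, Ccnd1, Ccnd2, Ccnd3, Ccne2 and Cdk6 share exon bases with a gene on the other strand. The kit keeps strand, but the strand setting of the counting is not given in the sources used here.

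Cdk6 (ENSMUSG00000040274, chr5:3341485-3531008, mm10, plus strand), a kinase partner of the D cyclins, had the largest fall of the members along globin share. It was at 116, 59.7, 35.6, 19.2 and 8.48 CPM with no overlap between neighbours. The log2 ratio of the last to the second class was -2.81 (-3.16 to -2.48). Thinned to 2000 UMIs, 17.1% of cells in the first class and 1.05% in the last had a UMI (unthinned 55.8% and 15.6%). Cdk6 was at 121 CPM (104 to 141) in megakaryocyte-like cells, which overlapped with the least mature erythroid class, and at 35.4 CPM (30.5 to 40.9) in LEPR+ stromal-like cells. The megakaryocyte-like level was 153 CPM (128 to 181) without the 5 deepest cells, above that erythroid class, and 77.7 CPM with equal weight for each cell. Cdk4, the other kinase of D cyclins, was at 258, 236, 243, 205 and 133 CPM along the erythroid classes, with a log2 ratio of -0.83 (-0.93 to -0.74). Cdk4 was thus above Cdk6 in each erythroid class.

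**Figure D2:**
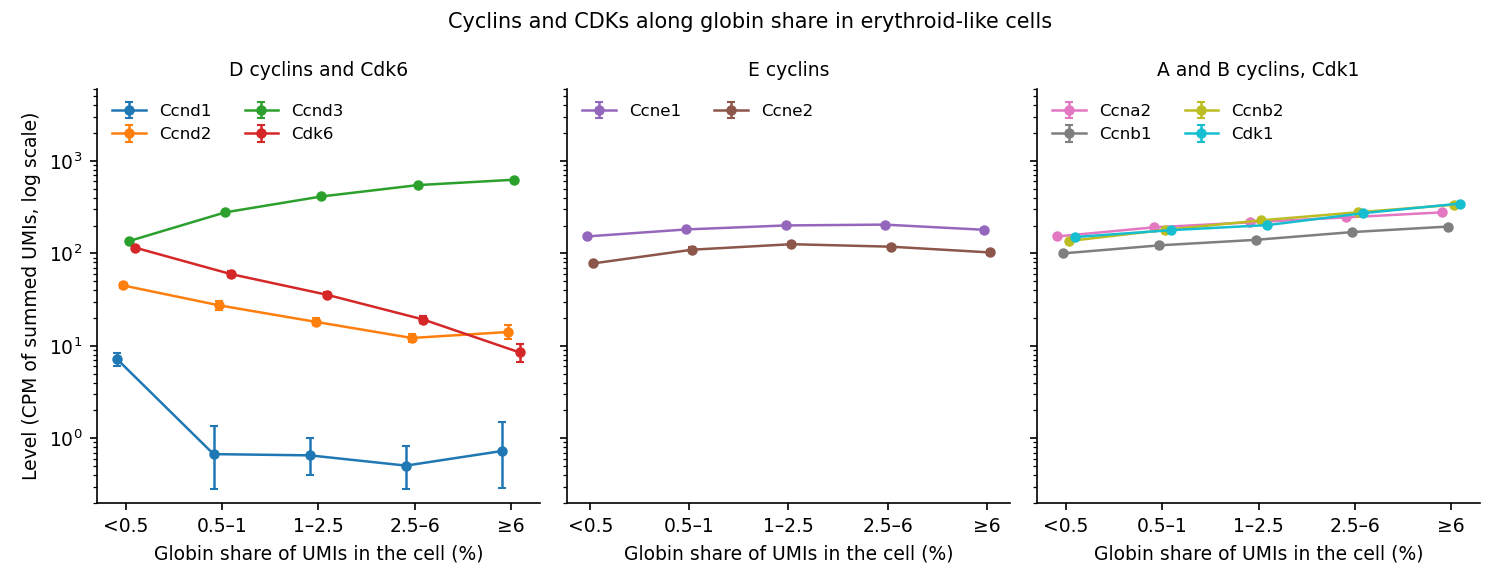
Level of each member (CPM, y axis on a log scale) in erythroid-like cells by globin share (percent, x axis), in panels by role, with exact 95% Poisson intervals as bars. Ccnd3 goes from 136 to 626 CPM while Cdk6 goes from 116 to 8.48 CPM, and the E cyclins lie between 77.9 and 205 CPM.

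The E cyclins stayed within 2-fold along the same classes. Ccne1 (ENSMUSG00000002068, chr7:38097984-38107534, mm10, minus strand) was at 153, 182, 200.4, 205 and 180.0 CPM. Ccne2 (ENSMUSG00000028212, chr4:11191351-11204779, mm10, plus strand) was at 77.9, 109.6, 126, 118 and 102 CPM. Both were lowest in the first class and highest in a middle one. Their log2 ratios of the last to the second class were -0.01 (-0.11 to 0.08) and -0.10 (-0.22 to 0.02), and 0.45 and 0.36 with TMM scaling, so no direction is given. Their kinase Cdk2 was at 40.7 and 39.0 CPM in these classes, a log2 ratio of -0.06 (-0.27 to 0.14).

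Ccna2, both B cyclins and Cdk1 were higher in each more mature erythroid class, without overlap between neighbours, also without the 3 clusters of low depth. Ccna2 (ENSMUSG00000027715, chr3:36564865-36572150, mm10, minus strand) was at 152, 191, 216, 245 and 278 CPM. Ccnb1 (ENSMUSG00000041431, chr13:100778650-100786570, mm10, minus strand) was at 99.97, 122, 140.0, 169.8 and 195 CPM. Ccnb2 (ENSMUSG00000032218, chr9:70407692-70421547, mm10, minus strand) was at 136, 179.7, 228, 278 and 335 CPM. Cdk1 (ENSMUSG00000019942, chr10:69335146-69352938, mm10, minus strand), the mitotic kinase, was at 150.01, 178, 202, 272 and 345 CPM. Within the first class Cdk1 ran from 89.2 CPM in cluster 1 to 198 CPM (185 to 211) in cluster 7, which overlapped with the second class, and Ccnb1 from 62.4 to 119 CPM. The log2 ratios of the last to the second class were 0.54 (0.46 to 0.62) for Ccna2, 0.68 (0.57 to 0.78) for Ccnb1, 0.90 (0.82 to 0.98) for Ccnb2 and 0.95 (0.87 to 1.03) for Cdk1. Thinned to 2000 UMIs, 17.2% of cells in the first class and 46.6% in the last had a Ccnb2 UMI (unthinned 55.5% and 90.1%), beside 2.47% of LEPR+ stromal-like cells. The Ccnb1 level is uncertain, since a pseudogene, Ccnb1-ps, matches 394 of its bases at 99.2% identity and was not counted.

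Of 9455 genes with at least 50 UMIs in both classes together, 19.6% were at least 2-fold lower at 6% globin or more than at 0.5 to 1%, and 1.54% were at least 2-fold higher. Of the 9 members with that many UMIs, 1 was lower (Cdk6) and 1 was higher (Ccnd3), and Ccnd1 had too few to be read. When each cell had the same weight, Ccnd3 was at 0.97 and no longer passed, while Ccnb2 and Cdk1 did. The median log2 ratio was 0.54 over these members and -0.46 over all genes. CPM are shares of all UMIs, so fewer transcripts of a gene and more of others cannot be told apart. TMM scaling moved the median of all genes from -0.46 to 0.00 and gave 5 members 2-fold higher (Ccna2, Ccnb1, Ccnb2, Ccnd3 and Cdk1), beside 4.99% of all genes.

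At a like globin share, Ccnd2 differed between clusters of erythroid-like cells. The members were left out of the genes used for clustering. Cluster 6 was led by Plek2, Erfe (the hormone erythroferrone) and Fabp5, with Cish and Pim1 among its 10 leading genes, and cluster 0 by Tac2 and Fn3k. At 1 to 2.5% globin Ccnd2 was at 33.6 CPM (30.2 to 37.4) in 348 cells of cluster 6 and 1.70 CPM (0.988 to 2.72) in 408 cells of cluster 0. At 2.5 to 6% it was at 30.7 CPM (27.4 to 34.2) in 359 cells and 1.06 CPM (0.587 to 1.77) in 621 cells. Median UMIs per cell were 57600.5 and 49169 in the first pair and 54755 and 44655 in the second. Cluster 5, of less mature cells, was at 53.9, 39.4 and 43.2 CPM in the first 3 globin classes, and cluster 10 at 3.84 and 2.73 CPM from 1 to 2.5% and from 2.5 to 6%.

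Between the same clusters Ccnd3 differed less. At 2.5 to 6% globin Ccnd3 was at 501 CPM in cluster 6, 563 CPM in cluster 0 and 664 CPM in cluster 10. In less mature cells Ccnd3 was less even, from 70.2 CPM in cluster 7 to 224 CPM in cluster 4 under 0.5% globin, and from 238 CPM in cluster 5 to 409 CPM in cluster 4 at 0.5 to 1%. At 2.5 to 6% Cdk6 was at 22.9, 16.2 and 21.4 CPM, and Ccne1 at 194, 220.3 and 189.6 CPM. Cdk1 was at 283 CPM (273 to 294), 305 CPM (296 to 315) and 147 CPM (135 to 160.3), so cluster 10 was low in Cdk1, while its Ccnb2 was the highest of the 3 at 344 CPM against 263 and 284 CPM. Of the 7 genes listed as inducers of D cyclins, Myc was at 21.5 CPM in cluster 6 and 12.2 CPM in cluster 0, Epor at 78.6 and 86.0 CPM, Myb at 8.30 and 11.2 CPM, Stat5a at 6.85 and 7.83 CPM, Stat5b at 17.3 and 16.4 CPM and Kit at 1.35 and 0.805 CPM, while Mycn had 1 UMI in cluster 6 and none in cluster 0. Whether the clusters come from different mice cannot be told apart.

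**Figure D3:**
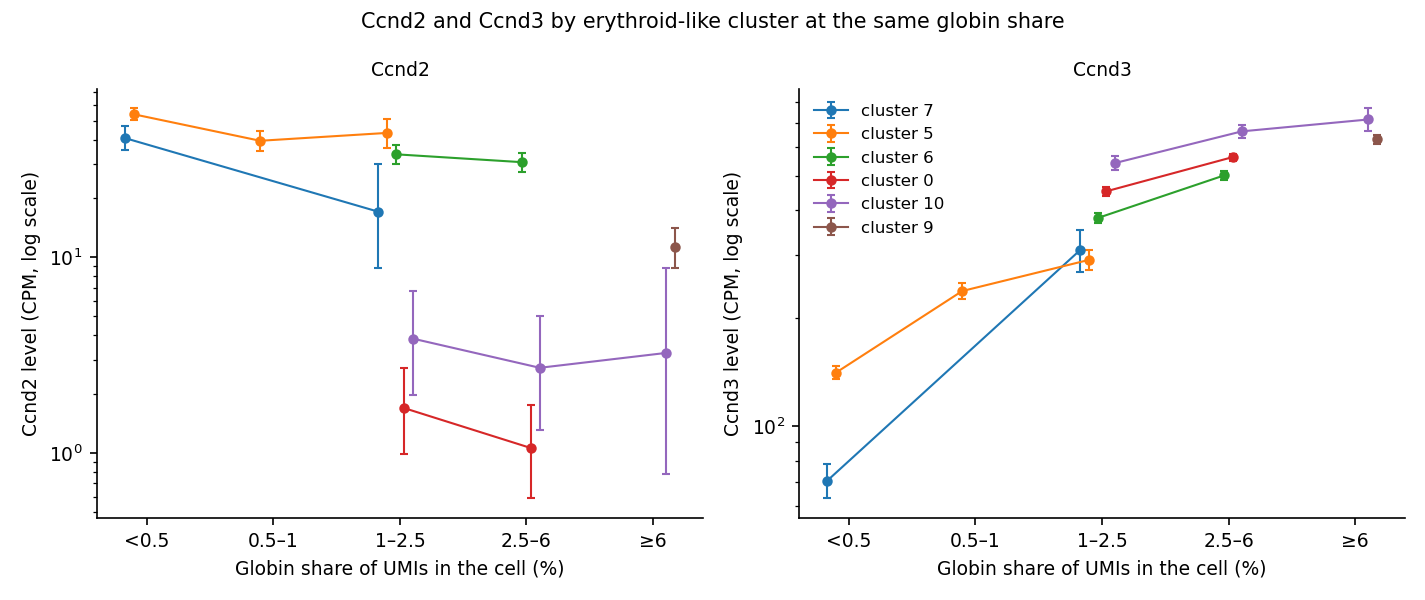
Ccnd2 and Ccnd3 levels (CPM, y axes on log scales) by globin share (percent, x axis) in clusters of erythroid-like cells, for groups of at least 50 cells, with exact 95% Poisson intervals as bars. At 1 to 2.5% globin Ccnd2 is at 33.6 CPM in cluster 6 and 1.70 CPM in cluster 0, and Ccnd3 at 381 and 452 CPM.

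Outside the erythroid-like cells, the mitotic members were highest in megakaryocyte-like cells. Megakaryocytes are known to copy their genome without dividing. Ccnb1 was at 109.6 CPM (93.1 to 128), Ccnb2 at 152 CPM (133 to 174), Cdk1 at 172 CPM (152 to 195) and Ccna2 at 86.2 CPM (71.7 to 103). The first 3 overlapped with the least mature erythroid class, but for Ccnb1 and Ccnb2 this rested on the deepest cells. Ccne1 was at 15.0 CPM (9.35 to 22.8) and Ccne2 at 18.2 CPM (11.9 to 26.6), where that erythroid class had 153 and 77.9 CPM and LEPR+ stromal-like cells 13.9 and 10.1 CPM. The mitotic UMIs lay in few cells, as 5 of 130 cells held 72.9% of 314 Ccnb1 UMIs and 72.0% of 436 Ccnb2 UMIs. Without the 5 deepest cells Ccnb1 was at 71.4 CPM (54.8 to 91.6) and Ccnb2 at 95.0 CPM (75.6 to 118), both below the least mature erythroid class, while Cdk1, at 142 CPM (118 to 169.7), still overlapped with it and Ccna2 was at 83.5 CPM. With equal weight for each cell Ccnb1 was at 51.9 CPM, Ccnb2 at 92.8 CPM, Cdk1 at 106 CPM and Ccna2 at 60.1 CPM. The level of Cdk1 thus also depended on the deeper cells. Cdkn2d, an inhibitor of Cdk4 and Cdk6, was at 299.9 CPM in these cells and at 61.5 CPM or less in the other classes.

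In LEPR+ stromal-like cells the mitotic and E members were low, and they lay near their ratio to erythroid RNA. Of the 14 erythroid markers, Tfrc, Gata1, Epor, Aqp1 and Car2 were left out here, as other cell types also use them. This choice was made after the data were seen. Summed over the other 9 erythroid markers, the level was 4059.5 CPM in erythroid-like, 264 CPM in LEPR+ stromal-like, 168 CPM in megakaryocyte-like, 159 CPM in fibroblast-like and 466 CPM in endothelial-like cells. At the ratio of erythroid-like cells, the markers in LEPR+ stromal-like cells go with 13.8 CPM of Ccna2, 14.7 CPM of Ccnb2 and 12.1 CPM of Ccne1, and the measured levels were 14.4 CPM (11.4 to 18.1), 15.1 CPM (11.97 to 18.8) and 13.9 CPM (10.9 to 17.4). Cdk1 (17.5 against 14.3 CPM), Ccnb1 (12.1 against 9.25 CPM) and Ccne2 (10.1 against 7.05 CPM) were closer to that ratio than Ccnd3 (106 against 25.5 CPM), Ccnd2 (63.0 against 1.51 CPM), Cdk6 (35.4 against 3.22 CPM) and Ccnd1 (3.71 against 0.137 CPM). In megakaryocyte-like cells Ccnb1 was at 109.6 CPM, where the ratio gives 5.90 CPM. The part of erythroid RNA in these levels was not tested.

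Between LEPR+ stromal-like and all erythroid-like cells, 19.8% of 13486 genes were at least 2-fold lower in the former and 46.2% at least 2-fold higher. Of the 10 members, 7 were lower (Ccna2, Ccnb1, Ccnb2, Ccnd3, Ccne1, Ccne2 and Cdk1) and 1 was higher (Ccnd2, log2 ratio 1.44 (1.27 to 1.60)). With TMM scaling Ccnd2 was at 0.71 and no member was 2-fold higher, and 8 were lower, Cdk6 (-1.21) with them, beside 30.6% of all genes. The log2 ratios were -3.90 (-4.24 to -3.58) for Ccnb2, -3.75 (-4.10 to -3.42) for Ccne1 and -1.89 (-2.02 to -1.77) for Ccnd3. The median was -3.50 over the members and 0.80 over all genes with UMIs in both.

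A sub-cluster of 45 LEPR+ stromal-like cells, led by Iigp1, Snhg11 and Csf1, had Ccne1 at 109 CPM, Ccna2 at 84.0 CPM and Ccnb1 at 57.3 CPM, beside erythroid markers at 1122 CPM. Without it the class had Ccne1 at 9.27 CPM, Ccna2 at 11.1 CPM, Ccnd2 at 64.4 CPM and Ccnd3 at 101 CPM. Fibroblast-like cells had 4 Ccnb1 UMIs, 2 Ccnb2 UMIs and 1 Ccne2 UMI in all. Endothelial-like cells had 8 Cdk1 UMIs, and fewer of Ccna2, Ccnb1, Ccnb2, Ccne1, Ccne2 and Cdk6. Of the CDK inhibitors, Cdkn1a and Cdkn1c were highest in fibroblast-like cells, at 382 and 591 CPM, against 33.8 and 163 CPM in LEPR+ stromal-like and 7.34 and 1.11 CPM in erythroid-like cells. Cdkn1b was at 171 CPM in endothelial-like, 102 CPM in fibroblast-like and 41.6 CPM in erythroid-like cells, and Cdkn2c at 17.5 CPM in fibroblast-like and 57.9 CPM in erythroid-like cells. Cdkn2a, which encodes both p16Ink4a and p19Arf, had 21 UMIs in the 9 classes together, and Cdkn2b had 115. The Cdkn2a count does not tell p16Ink4a from p19Arf.

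**Figure D4:**
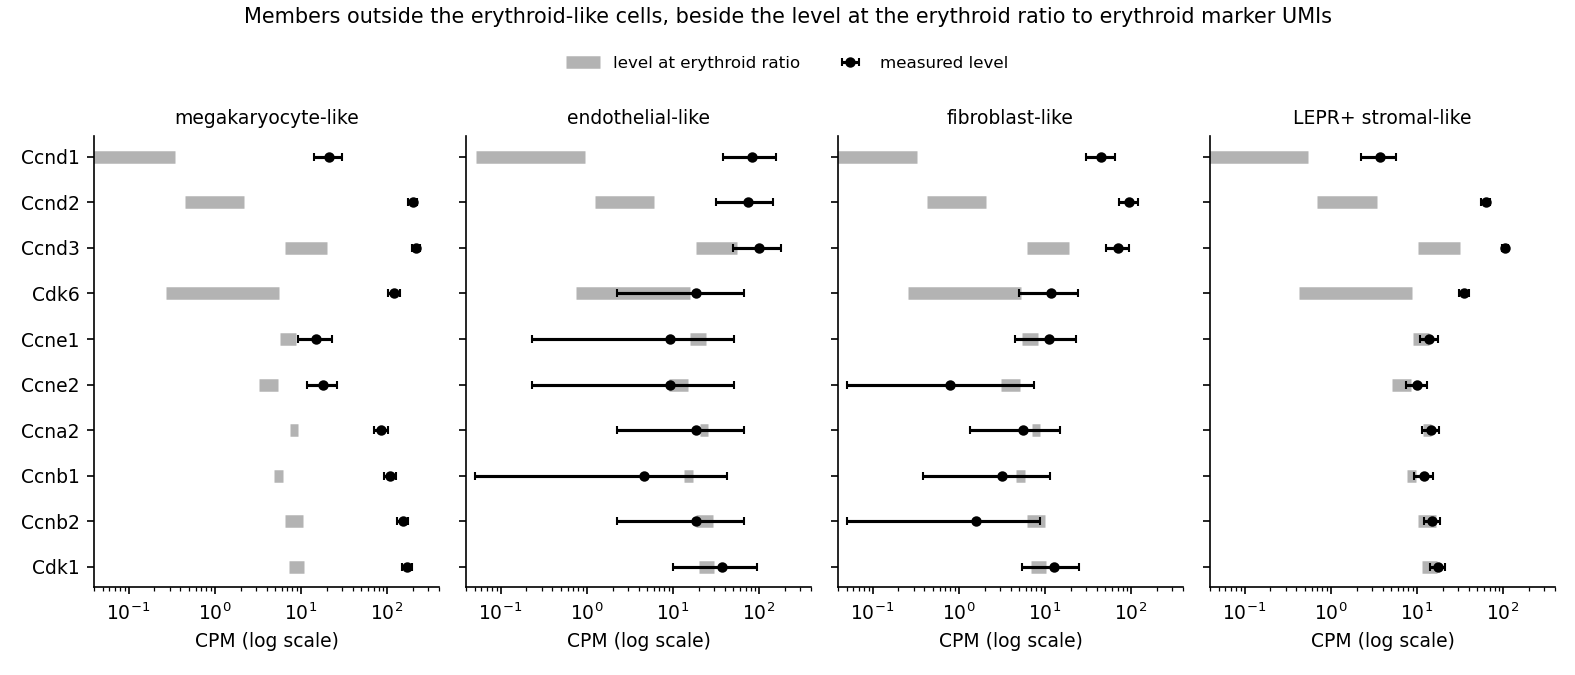
Level of each member (CPM, x axis on a log scale) in 4 classes outside the erythroid-like cells, as points with exact 95% Poisson intervals, beside bars for the level at the ratio to 9 erythroid markers in the erythroid classes. In LEPR+ stromal-like cells Ccnd2 (63.0 CPM) and Ccnd3 (106 CPM) lie above that level, and Ccna2 (14.4 CPM) lies within it.

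The genes around the members were read from 8 lists, again at 6% globin or more against 0.5 to 1%, where 1.54% of all genes tested were 2-fold higher and 19.6% lower. Of 7 CDK phosphatases, inhibitory kinases and CKS adaptors 1 was 2-fold higher, Cdc25b (a phosphatase that activates Cdk1), which went from 11.4 to 87.9 CPM, a log2 ratio of 2.95 (2.68 to 3.23). Of 8 ubiquitin ligase parts that remove cyclins 1 was higher, Ube2c (the E2 enzyme of the anaphase-promoting complex), from 262 to 754 CPM, a log2 ratio of 1.52 (1.46 to 1.59). Of 5 CDK inhibitors Cdkn2d was higher, at 1.81 (1.58 to 2.05), and Cdkn1c lower, at -1.61 (-3.30 to -0.20), from levels of 1.75 CPM or less. Cdkn1a (0.64), Cdkn2c (0.64) and Cdkn1b (-0.05) were within 2-fold.

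Of 13 RB and E2F genes, E2f2 was higher (log2 ratio 1.01 (0.90 to 1.12)), and E2f5 (-1.96 (-3.27 to -0.83)) and E2f6 (-1.04 (-1.33 to -0.75)) were lower. Of 6 inducers of D cyclins 3 were lower, namely the receptor Kit (-3.33 (-4.69 to -2.22)), the transcription factor Myb (-2.68 (-3.14 to -2.24)) and Stat5a (-2.55 (-3.16 to -1.98)), and none was higher. Of 14 other CDKs 1 was lower, Cdk10 (-1.97 (-2.90 to -1.14)). None of 12 other cyclins or of 8 mitotic and late cell cycle genes was 2-fold apart. With TMM scaling, which put 4.99% of all genes 2-fold higher, 3 of the 8 mitotic genes were higher (Aurka, Aurkb and Plk1), and Cdkn1a and Cdkn2c (both at 1.10), Rb1, Cdc25c, Cdc20, Fzr1 and Ube2s also passed. E2f6, at -0.58, was then no longer lower. The medians of the 8 lists ran from -1.76 for the inducers to 0.64 for the CDK inhibitors, beside -0.46 over all genes.

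**Figure D5:**
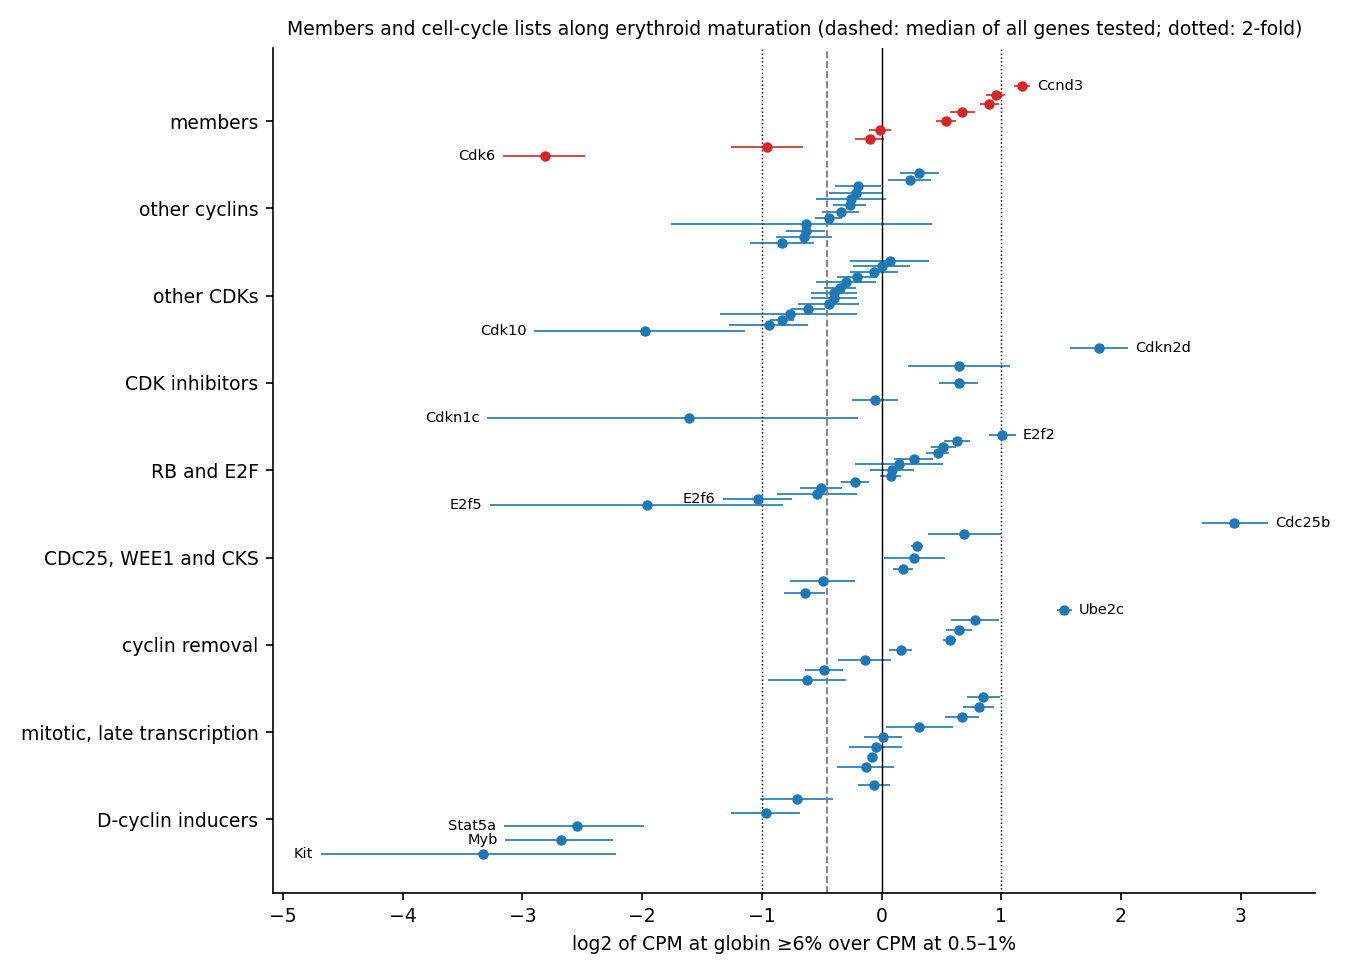
Log2 ratio of CPM between erythroid-like cells with 6% globin or more and with 0.5 to 1% (x axis) for the members and the genes of 8 lists (y axis), with exact 95% intervals. Cdc25b lies farthest to the right (2.95) and Kit farthest to the left (-3.33), and the median of all genes is -0.46.

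The genes most like 6 of the members across the 9 classes were taken by Pearson r of log2(CPM + 1) over 13996 genes. The 9 points come from 1 pool of cells, so r is a description. For Ccnb1 they were Cerkl, Cdca2 and Gata1 (r of 0.996, 0.995 and 0.995), and for Ccne2 Mki67, Asf1a and Pole2 (r of 0.994, 0.993 and 0.993). For Ccnd3 they were Tmx1, Rnf212 and Arf5 (r of 0.979, 0.972 and 0.970), and for Ccnd2 Rer1, Map2k6 and Emc4 (r of 0.983, 0.982 and 0.980). For Ccnd1 they were Plk3, Pkp4 and Zfp296 (r of 0.972, 0.969 and 0.966), and for Cdk6 Krr1, Mri1 and Trim28 (r of 0.983, 0.982 and 0.969).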

How the data were processed

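Single-cell RNA-seq counts were read for 1 pool of Lin-CD45- bone and marrow cells from 3 mice, in 2 libraries labelled replicates 1 and 2. The deposited values are raw UMI counts per gene and barcode, which the authors made with Cell Ranger (version 3.0.2 in the file header, while the study's methods name a later version) on mm10. Reads that fit more than 1 gene, such as a gene and its pseudogene copy, can be lost at that step. Per the submitters' processing notes, R 4.0.3 and Seurat 4.0 were also used.

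The study's text gives both pooled mice and separate animals for such data. As the libraries share nearly all barcodes with matched depth, they were read as the same cells and summed per barcode, and barcodes with at least 200 genes and at most 20% mitochondrial UMIs were kept. Cells were clustered with Seurat 5.3.0 (SCTransform with sctransform 0.4.2, 3000 variable genes, 30 principal components, resolution 0.8) in R 4.3.3, with the members and the pathway genes left out of the variable genes. Clusters that were not erythroid-like were clustered again, which was decided after the first clusters were seen, as endothelial cells had none of their own. A marker counted as found in a cluster if 10% or more of the cells showed it and its CPM there reached 25% of the top cluster's value. A name took at least 3 markers found and, among the 10 leading genes, no marker of another list unless one of its own was there too. A cluster with median UMIs below the median over all cells divided by 3 and none of its markers among the top 10 genes stayed unnamed. This rule of naming was chosen after the data were seen. Doublets were kept. Scrublet (scanpy 1.11.5, expected rate 8%), run on the counts of replicate 1 alone and not on the summed counts, called 194 of 9573 cells (2.03%).

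Levels are CPM (per 1000000) of summed UMIs, with exact Poisson intervals on the mean of the libraries. Shares have exact Clopper-Pearson intervals, and ratios have exact conditional binomial intervals, all at 95%. UMIs of the libraries were halved for these. A gene was called 2-fold apart from its CPM alone among genes with at least 50 UMIs in both classes together. TMM factors came from edgeR 4.0.16. The scripts for ratios were tested on simulated data. Named genes were the 10 members, Cdk2, Cdk4, the CDK inhibitors, up to 4 genes 2-fold apart in each list and the 3 genes most like each of 6 members; the other D-cyclin inducers and the genes that lead clusters were named beside them after their values were seen. The members and lists were chosen with earlier results of these data known. Alternatives were single libraries, filters, classes, scalings, folds and cell weights.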

Additional observations from a re-analysis of the deposited data

How the results depend on the processing

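Cdk6 was at least 2-fold lower at 6% globin or more under each alternative tried. The count of members 2-fold lower was 1, and 1 to 2 when either library was left out, with Ccnd2 joining Cdk6 without replicate 2. It was 2 at a mitochondrial limit of 10%, 2 with a marker gate 2 at a fold of 1.5 and 2 without the 3 erythroid-like clusters of low depth (Ccnd2 joined in each), and 3 between the fifth and the second of 5 groups of equal cell number (Ccnd1 and Ccnd2 joined). The count of members 2-fold higher was 1, but 3 with CPM without globin, 5 with TMM, 4 at a fold of 1.5 and 2 with the mean of the single cells' CPM, where Ccnb2 and Cdk1 passed and Ccnd3, at 0.97, did not. The share of all genes called changes with the setting too, and apart from TMM it is not given here. These counts are therefore not read as results about the members beside other genes. The E cyclins changed sign with TMM, with CPM without globin (0.11 and 0.03) and with equal groups (0.14 and 0.13). The Ccnd3 share of D-cyclin UMIs in erythroid-like cells was 93.7% without those 3 clusters, 95.5% after thinning to 2000 UMIs and 95.2% with the mean of cells, and in megakaryocyte-like cells 61.2% and 62.6%. In fibroblast-like cells the Ccnd2 share was 33.9% after thinning, the same as that of Ccnd3, and 77.6% with the marker gate, which took in 18 plasma cell or B cell-like cells with 250 of its Ccnd2 UMIs. In endothelial-like cells the Ccnd3 share was 69.5% with the marker gate, which took in 128 erythroid-like cells, and Ccnd2 led after thinning with 37.0%. Resolution 0.4 gave no endothelial-like class. Between LEPR+ stromal-like and erythroid-like cells, TMM left 0 members 2-fold higher. Of the values recomputed, 83 main shares and counts stayed within the limits set and 19 did not. Of single levels, shares, ratios and list counts, 767 stayed within them and 111 did not. The levels that moved were 15 with the marker gate, 14 without the 3 clusters of low depth, 14 with CPM without globin (all in the 2 classes richest in globin), 5 in megakaryocyte-like cells without the 5 deepest cells (Ccnb1, Ccnb2, Ccnd2, Cdk1 and Cdk6), 3 in LEPR+ stromal-like cells without called doublets (Ccna2, Ccne1 and Ccne2, each lower), and, in endothelial-like and fibroblast-like cells, 5 without replicate 1 and 1 without replicate 2, all to 0. TMM moved 18 ratios but not that of Ccnd1, and 6 list counts but not 10. The mean of cells for shares, the 5 deepest cells left out, the removal of doublets for levels, the 3 clusters of low depth left out, and TMM for the lists and for LEPR+ stromal-like cells were chosen as alternatives after the data were seen. No paired analysis was possible because both libraries belong to 1 group.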

Other observations

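A class of 42 plasma cell or B cell-like cells, which the CD45- gate let through, had the highest Ccnd2 level of all named classes, at 393 CPM (347 to 444). Ccnd2 made up 89.6% (85.5 to 92.8) of its 584 D-cyclin UMIs and Ccnd3 10.3% (7.04 to 14.3), while Ccnd1 had 1 UMI. The mitotic members were low there, with Cdk1 at 21.04 CPM, Ccna2 at 21.8 CPM, Ccnb1 at 15.0 CPM and Ccnb2 at 12.8 CPM.

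Another 253 cells were rich in globin (median 11.8% of UMIs) with few UMIs (median 1640 per cell), were led by Slfn14, Xpo7 and Tmcc2, and stayed unnamed. They had Ccnd3 at 60.8 CPM, where erythroid-like cells with 6% globin or more had 626 CPM. Ccna2 was at 66.5 CPM, Ccnb2 at 58.9 CPM, Cdk1 at 47.5 CPM and Ccnb1 at 13.3 CPM. These values rest on 526260 UMIs in all, so that Ccnd3 had 32 UMIs and Ccnb1 7.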
